A study of Homo sapiens with 18 samples.

Results

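Among the 9 libraries of the lymphoma cell line Ly1, the 3 numbered replicate 3 (1 in each of DMSO, 12 h and 24 h) stood apart from the 6 numbered replicates 1 and 2, and this difference inside 1 line is described here. They are 3 of the 18 libraries of the series, picked by the ending of their titles and because earlier values of these libraries showed them apart. The choice used these measurements, so every difference between replicate 3 and replicates 1 and 2 of Ly1 is given as a description, with no p-value. Ly1 is an established human line of diffuse large B cell lymphoma of the germinal centre B cell (GCB) type, and U2932 is the activated B cell type line of the same study. All Ly1 cells shared IMDM medium with 10% FBS, penicillin and streptomycin, and plasmocin, an anti-mycoplasma agent. The treated libraries had SGC-GAK-1, an inhibitor of the cyclin G-associated kinase GAK, at 1 µM for 12 h or 24 h, and the DMSO libraries had the solvent, with no time given. The labels do not say what a replicate number stands for, nor that replicates came from separate cultures, so any spread and any p-value here measures these samples, which may be technical repeats.

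Cells short of oxygen stabilise hypoxia-inducible factors, which bind a short core sequence near many promoters and switch on glucose uptake, glycolysis, lactate export, acid removal and vessel growth signals. Germinal centre B cells also balance NF-kappaB, cholesterol and fatty acid programmes, and these lists were followed beside the cell cycle, because GAK acts at the mitotic spindle as well as on clathrin coats. The genes of these programmes are described below in that order, after the size of the split.

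Total counts were 22549853 to 26047460 in Ly1 replicate 3 and 23411186 to 29386802 in Ly1 replicates 1 and 2. Levels are CPM, the counts of a gene scaled to a common library total, and a gene with 0 counts may hold up to 3 counts, or 0.101 to 0.135 CPM, from counting error alone. B cell markers summed to 6202 to 6673 CPM in replicate 3 and 6015 to 6756 CPM in replicates 1 and 2. Of the 12 T and NK markers, 5 were at 0 in all 9 libraries and the sum, mostly TRAC, was 26.6 to 29.8 CPM in replicate 3 and 25.0 to 44.6 CPM in replicates 1 and 2. Of the 11 myeloid markers, 6 were at 0 in all 9, with sums of 0 to 0.152 CPM in replicate 3 and 0.0450 to 0.238 CPM in replicates 1 and 2. For neither class did replicate 3 lie above all others. Stromal markers, of which 7 of 12 were at 0 in all 9, summed to 4.35 to 5.07 CPM in replicate 3 and 2.29 to 3.37 CPM in replicates 1 and 2. Epithelial markers, of which 4 of 10 were at 0 in all 9, summed to 4.87 to 5.35 CPM in replicate 3 and 3.47 to 5.89 CPM in replicates 1 and 2. A further sum took 14 genes with a mean of at least 100 CPM in U2932 and at most 0.5 CPM in Ly1 replicates 1 and 2. It was 2.11 to 2.55 CPM in Ly1 replicate 3, 0.625 to 1.82 CPM in Ly1 replicates 1 and 2, and 3999 to 4800 CPM in U2932. These genes were picked as low in replicates 1 and 2 alone, so the pick favours a higher sum in replicate 3. For both the stromal sum and the U2932 gene sum, all 3 replicate 3 libraries lay above the other 6 Ly1 libraries, and the U2932 gene sum stayed far below that of U2932. Their part in the differences was not tested. In bulk RNA, fewer cells of a kind and less RNA per cell cannot be told apart.

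The distance of replicate 3 from replicates 1 and 2 depended on the treatment. Across the 14005 genes tested in Ly1, the median absolute log2 difference in DMSO was 0.27 between replicates 3 and 1, 0.26 between replicates 3 and 2, and 0.10 between replicates 2 and 1. At 12 h these medians were 0.16, 0.13 and 0.11, so replicate 3 stood only slightly further off than the others stood from each other. At 24 h they were 0.34, 0.29 and 0.11. Replicate 3 was thus furthest off in DMSO and at 24 h. The first principal component, with 30.2% of the variance, placed the 3 replicate 3 libraries at -29.4 (DMSO), -17.2 (12 h) and -20.4 (24 h), below all 6 others, which lay between -2.64 and 36.1. Per-gene differences correlated between treatments with a Pearson r of 0.41 for DMSO and 12 h, 0.21 for DMSO and 24 h, and 0.33 for 12 h and 24 h. These are over 14005 genes that share libraries within each treatment, so they carry no p. A gene is called below where edgeR's adjusted p is under 0.05 in a fit over all genes, with 1 replicate 3 library per treatment assumed to vary like replicates 1 and 2. In DMSO 2561 genes were called higher and 2334 lower in replicate 3, which is 18.3% and 16.7% of genes tested. The shares were 2.61% and 1.46% at 12 h, and 21.8% and 19.5% at 24 h. With treatment as a block, 1120 genes (8.0%) were higher and 931 (6.65%) lower, and these counts were 91 and 14 without the replicate 2 libraries and 117 and 26 without the replicate 1 libraries. Of the 366 genes higher at 12 h, 286 were also called higher in DMSO (78.1% of the 12 h calls and 11.2% of the DMSO calls) and 267 at 24 h (73.0% and 8.74%).

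At 24 h part of the split ran along transcript length, and every 24 h value below is to be read beside this. In the 24 h difference the median was -0.39 log2 in the 20% of genes with the shortest transcripts (up to 1667 bases) and 0.33 in the longest 20% (from 5516 bases), with a Spearman rho with length of 0.50 over 13882 genes. The same rho was 0.03 in DMSO and 0.19 at 12 h. Relative to DMSO replicates 1 and 2, the shortest 20% in the 24 h libraries lay at -0.11 in replicate 3, against 0.29 and 0.22 in replicates 1 and 2, and the longest 20% at 0.12 against -0.25 and -0.19. It was thus replicates 1 and 2 at 24 h that lay furthest from the DMSO level. Offsets for length and GC content, an alternative chosen after the data were seen, were therefore applied, and the 24 h value with them is given where they moved it by over 1.5 times, turned it or changed the call, for lists and for genes called at 24 h with or without them. With them 24 h differences no longer followed length (rho 0.01). What the length pattern rests on was not tested.

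**Figure D1:**
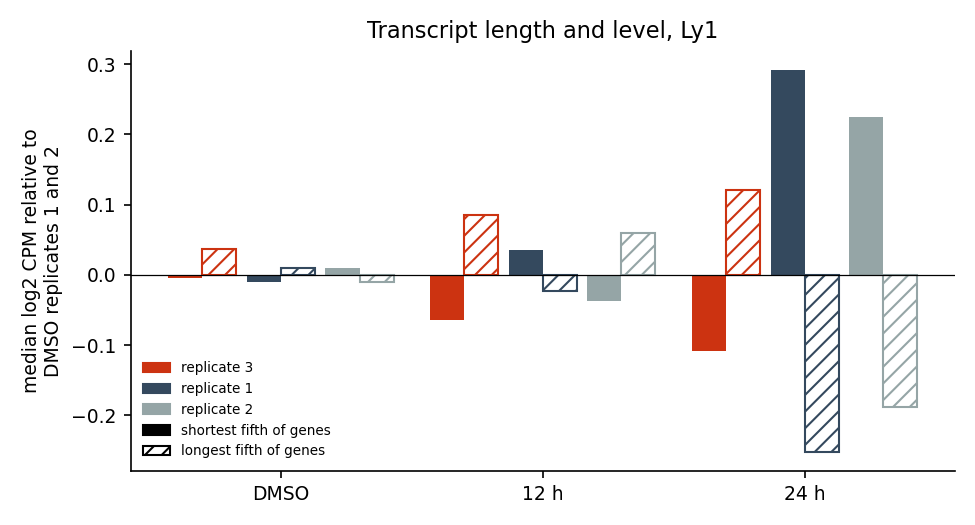
Median log2 CPM of the 20% of genes with the shortest (filled) and longest (hatched) transcripts in each Ly1 library, relative to the mean of DMSO replicates 1 and 2; the x axis gives the treatment and the colour the replicate. At 24 h the shortest 20% lies at -0.11 in replicate 3, and at 0.29 and 0.22 in replicates 1 and 2.

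Most hypoxia-responsive and glycolysis genes were called higher in DMSO replicate 3. Among 33 tested hypoxia-responsive genes outside glycolysis, 25 were called higher in DMSO replicate 3. Over the 33 genes the median log2 difference was 1.01, against 0.01 over all genes. Of them 32 lay above 0 and 1 below, at -0.40. Among 23 tested glycolysis and lactate genes, 22 were called higher, with a median of 0.64. Of all genes tested, 18.3% were called higher. At 12 h the same medians were 0.10 and -0.05, and at 24 h 0.16 and 0.22 (0.07 and 0.25 with the length and GC offsets). Both lists were thus furthest apart in DMSO. At 24 h, without the offsets, 23 of the 33 hypoxia genes lay above 0 and 10 below. Of the 23 glycolysis genes 14 lay above 0 and 9 below. Relative to DMSO replicates 1 and 2, the glycolysis median at 24 h was -0.01 in replicate 3, against -0.30 and -0.26 in replicates 1 and 2.

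CA9 (ENSG00000107159.13, chr9:35673918-35681159 in hg38), the membrane carbonic anhydrase that handles acid outside the cell, had 51.8 CPM in replicate 3, against 0.337 and 0.592 CPM in replicates 1 and 2, in DMSO, 1.75 against 0.426 and 0.401 CPM at 12 h and 1.72 against 0.495 and 0.516 CPM at 24 h. Its DMSO level in replicate 3 was 111-fold that of replicates 1 and 2, and it stayed above both at 12 h (4.24-fold) and 24 h (3.4-fold). PFKFB4, a kinase and phosphatase that sets the glycolytic activator fructose 2,6-bisphosphate, had 146 CPM in replicate 3, against 9.68 and 10.2 CPM in replicates 1 and 2, in DMSO, 16 against 10.5 and 8.93 CPM at 12 h and 15.7 against 6.61 and 6.71 CPM at 24 h. AK4, an adenylate kinase of the mitochondrial matrix, had 83.8 CPM in replicate 3, against 4.08 and 3.83 CPM in replicates 1 and 2, in DMSO, 5.6 against 3.07 and 2.76 CPM at 12 h and 5.27 against 2.29 and 1.27 CPM at 24 h. For all 3 genes the groups did not overlap at any treatment, and the log2 difference in DMSO was 6.81 ± 0.19, 3.88 ± 0.09 and 4.40 ± 0.13 (SE, 1 against 2 libraries), in that order.

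**Figure D2:**
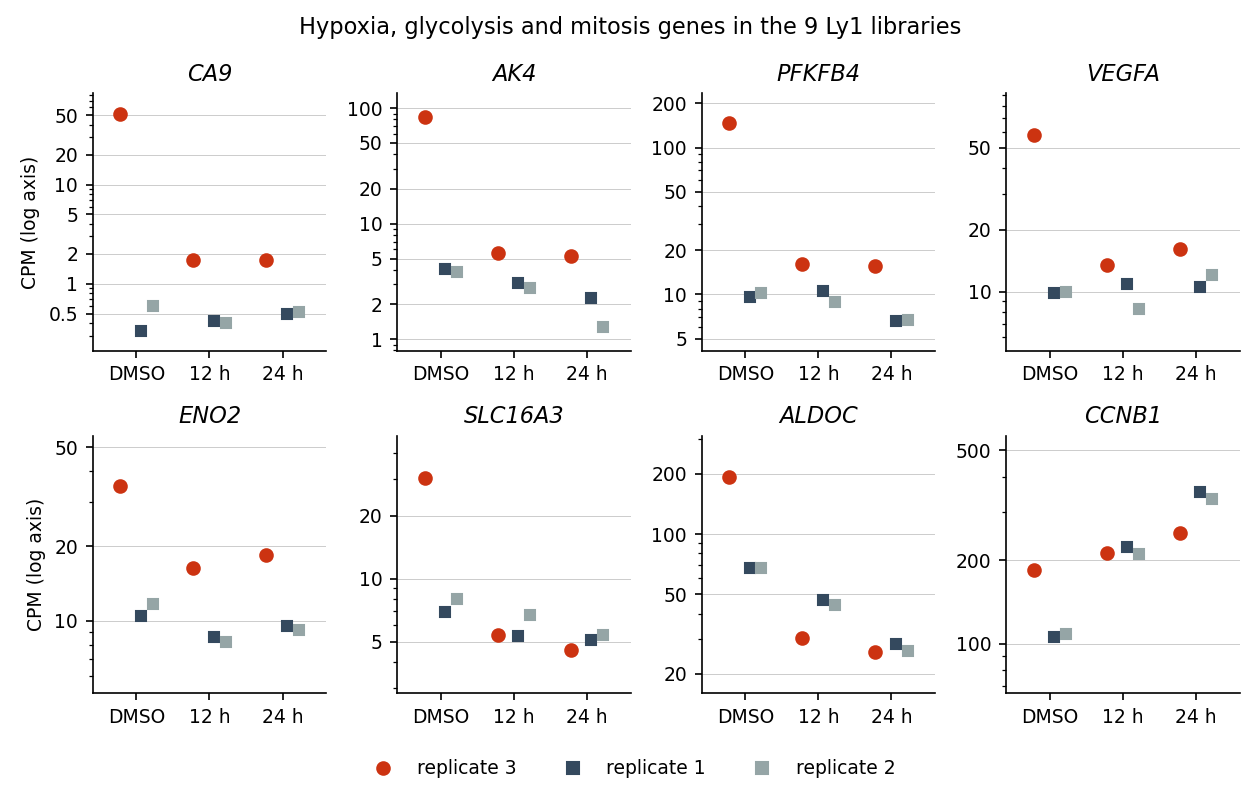
CPM on a log axis in each Ly1 library by treatment, for 7 hypoxia or glycolysis genes and the mitotic cyclin CCNB1, with replicate 3 as circles and replicates 1 and 2 as squares; each point is 1 library. DMSO replicate 3 lies far above the other libraries for the first 7 genes, while CCNB1 in replicate 3 is above replicates 1 and 2 in DMSO and below them at 24 h.

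The core of the hypoxia response element is the sequence these lists are known for. Promoters of 4 genes of these lists with a large DMSO difference and a single RefSeq entry are printed below. Some list genes were left out of the choice, so the printed promoters need not be those with the largest differences. They are GRCh38.p14 sequences from RefSeq, 250 bases before to 50 after the start, 5′ to 3′ on the gene's strand. Capitals mark ACGTG or GCGTG on either strand, with overlapping matches as 1 run. CA9 is at chr9:35673678-35673977 (plus strand), PPFIA4 at chr1:203026241-203026540 (plus strand), PFKFB4 at chr3:48556754-48557053 (minus strand) and MIR210HG at chr11:568408-568707 (minus strand).
CA9: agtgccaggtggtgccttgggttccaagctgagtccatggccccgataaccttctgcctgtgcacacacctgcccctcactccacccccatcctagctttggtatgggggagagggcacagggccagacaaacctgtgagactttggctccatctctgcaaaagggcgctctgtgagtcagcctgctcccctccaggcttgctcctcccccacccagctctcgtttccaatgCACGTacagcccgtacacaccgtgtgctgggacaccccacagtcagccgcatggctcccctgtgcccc
PPFIA4: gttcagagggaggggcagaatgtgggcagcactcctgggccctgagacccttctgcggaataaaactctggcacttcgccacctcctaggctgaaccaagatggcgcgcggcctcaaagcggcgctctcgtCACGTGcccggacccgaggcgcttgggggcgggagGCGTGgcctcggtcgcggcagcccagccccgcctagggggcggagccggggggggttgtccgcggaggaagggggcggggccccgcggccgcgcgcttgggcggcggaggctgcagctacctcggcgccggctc
PFKFB4: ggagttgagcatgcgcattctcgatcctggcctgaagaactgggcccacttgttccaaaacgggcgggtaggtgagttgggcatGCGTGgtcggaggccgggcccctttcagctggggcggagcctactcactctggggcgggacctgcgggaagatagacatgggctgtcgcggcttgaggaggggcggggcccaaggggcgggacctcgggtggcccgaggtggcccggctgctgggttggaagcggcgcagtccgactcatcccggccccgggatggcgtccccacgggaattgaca
MIR210HG: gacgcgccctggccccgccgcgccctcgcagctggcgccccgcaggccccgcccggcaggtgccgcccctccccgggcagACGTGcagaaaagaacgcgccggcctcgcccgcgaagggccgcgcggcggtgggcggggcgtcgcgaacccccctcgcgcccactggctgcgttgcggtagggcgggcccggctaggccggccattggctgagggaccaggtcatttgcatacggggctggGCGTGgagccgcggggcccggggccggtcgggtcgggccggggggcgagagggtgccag
CA9 holds 1 run close to its start and PFKFB4 1 run, while PPFIA4 and MIR210HG hold 2 each. Of the 56 tested genes of both lists, 32 had a single promoter entry, and 30 of these (93.8%) held the core, against 4510 of 6921 (65.2%) among all genes tested in Ly1. A match is a description of the letters and not a bound site.

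PPFIA4, a liprin-family scaffold gene, had 15.9 CPM in replicate 3, against 0.202 and 0.434 CPM in replicates 1 and 2, in DMSO. MIR210HG, the host transcript of the hypoxia-responsive microRNA miR-210, had 14.9 CPM in replicate 3, against 1.25 and 1.7 CPM in replicates 1 and 2, in DMSO, and 0.78 against 1.08 and 0.992 CPM at 24 h. Both were above replicates 1 and 2 in DMSO, and MIR210HG no longer was at 24 h. VEGFA, the vessel growth factor, had 57.5 CPM in replicate 3, against 9.85 and 9.98 CPM in replicates 1 and 2, in DMSO, 13.5 against 10.9 and 8.25 CPM at 12 h and 16.2 against 10.5 and 12 CPM at 24 h. NDUFA4L2, a mitochondrial protein that lowers respiratory activity under hypoxia, had 59.6 CPM in replicate 3, against 3.64 and 3.67 CPM in replicates 1 and 2, in DMSO, 5.79 against 2.81 and 3.64 CPM at 12 h and 4.99 against 4.41 and 4.09 CPM at 24 h. VEGFA and NDUFA4L2 in replicate 3 lay above replicates 1 and 2 in all 3 treatments, with log2 differences at 24 h of 0.52 and 0.24 (0.16 and 0.63 with the offsets). VEGFA was called at 24 h without the offsets alone, and NDUFA4L2 with them alone.

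The glycolytic steps were higher in DMSO replicate 3 from hexokinase to lactate export. HK2, the first enzyme of the pathway, had 283 CPM in replicate 3, against 132 and 124 CPM in replicates 1 and 2, in DMSO, 137 against 119 and 134 CPM at 12 h and 141 against 108 and 107 CPM at 24 h. Its 24 h difference was 0.39 log2 (0.20 with the offsets). ENO2, an enolase, had 34.8 CPM in replicate 3, against 10.5 and 11.6 CPM in replicates 1 and 2, in DMSO, 16.2 against 8.61 and 8.17 CPM at 12 h and 18.4 against 9.49 and 9.17 CPM at 24 h. Its log2 difference was 0.95 ± 0.13 at 12 h and 0.98 ± 0.12 at 24 h, so the groups stayed apart. SLC16A3, the lactate exporter MCT4, had 30.1 CPM in replicate 3, against 6.95 and 8.01 CPM in replicates 1 and 2, in DMSO, 5.37 against 5.33 and 6.73 CPM at 12 h and 4.57 against 5.13 and 5.4 CPM at 24 h. At 12 h and 24 h its replicate 3 values were within or below those of replicates 1 and 2, unlike those of ENO2. ALDOC, an aldolase, had 194 CPM in replicate 3, against 68 and 68 CPM in replicates 1 and 2, in DMSO, 30.2 against 46.6 and 44.3 CPM at 12 h and 25.7 against 28.2 and 26.1 CPM at 24 h. It was higher in replicate 3 in DMSO and lower at 12 h, and its 24 h difference of -0.08 log2 (0.14 with the offsets) was not called. The abundant enzymes showed smaller steps: PGK1 had 1135 CPM in replicate 3, against 592 and 586 CPM in replicates 1 and 2, and LDHA 1980.1 CPM in replicate 3, against 1228 and 1213 CPM in replicates 1 and 2, both in DMSO. Of the other hypoxia-list genes, PDK1, which holds back pyruvate entry into mitochondria, had 160.1 CPM in replicate 3, against 63.7 and 63.5 CPM in replicates 1 and 2, and BNIP3, a mitophagy receptor, 315 CPM in replicate 3, against 143 and 145 CPM in replicates 1 and 2, in DMSO. ANKRD37 was a member that was not called, at 4.96 against 4.32 and 3.86 CPM in DMSO.

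Both treated times are compared with DMSO, and in this comparison replicate 3 also had another apparent response to SGC-GAK-1. The comparison of responses is the 12 h or 24 h difference minus the DMSO difference, so it rests on the same libraries and adds no independent evidence. At 12 h 493 genes (3.52%) had a higher and 773 (5.52%) a lower response in replicate 3 than in replicates 1 and 2, and at 24 h 2489 (17.8%) and 2260 (16.1%). The CA9 log2 change from DMSO at 24 h was -4.85 in replicate 3, against 0.46 and -0.17 in replicates 1 and 2. For VEGFA it was -1.82 in replicate 3, against 0.09 and 0.26 in replicates 1 and 2, and for HK2 -1.0 in replicate 3, against -0.29 and -0.21 in replicates 1 and 2. All 3 genes thus had lower values in the treated than in the DMSO library of replicate 3, and values within 0.5 log2 of their DMSO level in replicates 1 and 2. Among hypoxia-list genes, 21 of 33 had a lower response at 12 h and 19 at 24 h, and among glycolysis genes 19 and 15 of 23.

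Genes of G2 and mitosis showed the same kind of offset in DMSO and the opposite one at 24 h. Of 49 tested, 45 were called higher in the DMSO library of replicate 3, where the list median was 0.50, and it was 0.03 at 12 h and -0.14 at 24 h, where 5 were called higher and 23 lower. The shares called over all genes were 18.3% higher in DMSO, and 21.8% higher and 19.5% lower at 24 h. Relative to DMSO replicates 1 and 2, the list median in replicate 3 was 0.50 in DMSO, 0.73 at 12 h and 0.82 at 24 h. In replicate 1 it was 0.69 at 12 h and 1.01 at 24 h, and in replicate 2 0.73 and 0.99. The list therefore reached similar levels at 12 h in all 3 replicates, from a higher DMSO level in replicate 3. CCNB1, the cyclin that drives entry into mitosis, had 184 CPM in replicate 3, against 106 and 108 CPM in replicates 1 and 2, in DMSO, 214 against 224 and 210.1 CPM at 12 h and 250.3 against 353 and 335 CPM at 24 h. CENPE, the kinetochore motor of the spindle, had 109.7 CPM in replicate 3, against 43.4 and 46.6 CPM in replicates 1 and 2, in DMSO, 111 against 90.5 and 109 CPM at 12 h and 113 against 167 and 169 CPM at 24 h. PIF1, a DNA helicase expressed late in the cycle, had 14.2 CPM in replicate 3, against 4.25 and 4.06 CPM in replicates 1 and 2, in DMSO, 8.31 against 7.03 and 7.77 CPM at 12 h and 9.4 against 14.8 and 15.1 CPM at 24 h. At 24 h CENPE differed by -0.57 log2 (-1.02 with the offsets). In these 3 genes the sign of the difference turned between DMSO and 24 h, and the CENPE log2 change at 24 h was 0.05 in replicate 3, against 1.94 and 1.86 in replicates 1 and 2. MKI67, the proliferation antigen Ki-67, had 606 CPM in replicate 3, against 225 and 337 CPM in replicates 1 and 2, in DMSO, 540.4 against 338 and 512 CPM at 12 h and 684 against 373 and 431 CPM at 24 h. Replicate 3 was above replicates 1 and 2 in every treatment, although these also differed from each other, and its 24 h difference, 0.77 log2 (0.32 with the offsets), was not called. GAK, the target of the inhibitor, differed little, with 39.9 CPM in replicate 3, against 40.6 and 41.1 CPM in replicates 1 and 2, in DMSO, 41.4 against 39.8 and 42.3 CPM at 12 h and 41.2 against 42.5 and 42 CPM at 24 h.

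**Figure D3:**
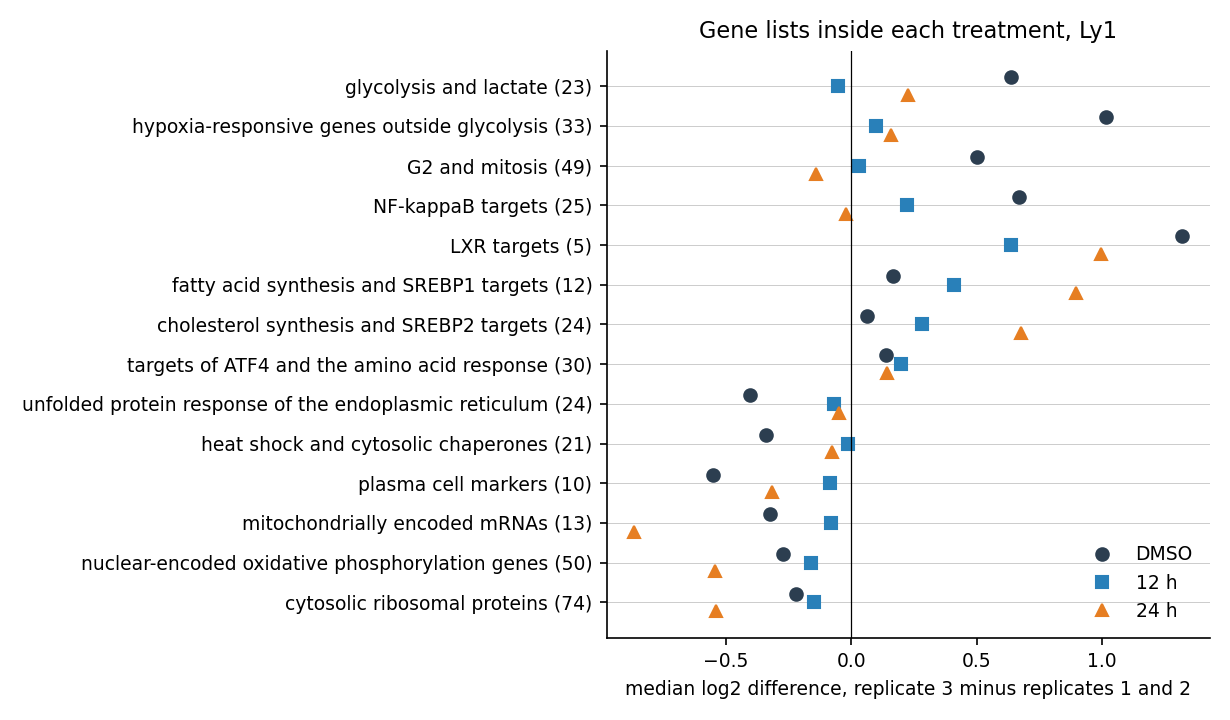
Median log2 difference between replicate 3 and replicates 1 and 2 of Ly1 for 14 gene lists, with the number of tested members in brackets; each marker is 1 treatment. Hypoxia (1.01), glycolysis (0.64) and mitosis (0.50) have their highest median in DMSO, while the lipid list lies at 0.89 at 24 h and the ribosomal and oxidative phosphorylation lists lie left of 0 in every treatment.

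NF-kappaB targets were another group with its largest excess in DMSO. The shares called over all genes were 18.3% higher in DMSO and 2.61% higher at 12 h. At 24 h these shares were 21.8% higher and 19.5% lower. Of 25 tested, 17 were called higher in DMSO replicate 3 and 8 at 12 h, with medians of 0.67 and 0.22, and at 24 h 9 were higher and 4 lower, with a median of -0.02 (0.22 with the offsets). LTB, the membrane lymphotoxin that activates the non-canonical arm, had 52.9 CPM in replicate 3, against 5.53 and 6.7 CPM in replicates 1 and 2, in DMSO, 29.5 against 9.97 and 9.21 CPM at 12 h and 39.4 against 44.6 and 39.4 CPM at 24 h. The LTB log2 change from DMSO to 24 h was -0.42 in replicate 3, against 2.99 and 2.54 in replicates 1 and 2. The groups met at 24 h, where the difference was -0.09 log2 (0.26 with the offsets), called with the offsets alone. BIRC3, an inhibitor of apoptosis and part of that arm's control, had 229.6 CPM in replicate 3, against 77.9 and 66.4 CPM in replicates 1 and 2, in DMSO, 149 against 84.8 and 92.9 CPM at 12 h and 184 against 116 and 116 CPM at 24 h. TNFAIP3, the A20 brake on NF-kappaB, had 7.57 CPM in replicate 3, against 3.14 and 3.0 CPM in replicates 1 and 2, in DMSO, 5.45 against 2.81 and 3.24 CPM at 12 h and 6.55 against 3.33 and 3.57 CPM at 24 h. REL, a subunit of the factor itself, had 127 CPM in replicate 3, against 63 and 63.5 CPM in replicates 1 and 2, in DMSO, 119.5 against 75.6 and 107 CPM at 12 h and 151 against 40.8 and 50.1 CPM at 24 h. The 3 genes had no overlap at any time. At 24 h BIRC3 differed by 0.67 log2 (0.40 with the offsets), and REL differed most at 24 h, by 1.73 ± 0.24 log2 (1.22 with the offsets). NFKBIA, the inhibitor that NF-kappaB induces, had 25.1 CPM in replicate 3, against 18.2 and 18.5 CPM in replicates 1 and 2, in DMSO. BIRC3, TNFAIP3, REL and NFKBIA in replicate 3 were above replicates 1 and 2 in every treatment. In 11 of the 25 list genes all 3 replicate 3 libraries lay above all 6 others over treatments, against 7.81% of all genes tested.

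Another set of genes differed in the same direction in every treatment. Of the genes tested, 1094 (7.81%) had all 3 replicate 3 libraries above all 6 others, and 1282 (9.15%) had them below. BACE2 (ENSG00000182240.16, chr21:41167801-41282530), a membrane aspartyl protease, had 25.3 CPM in replicate 3, against 4.22 and 3.71 CPM in replicates 1 and 2, in DMSO, 10.7 against 3.24 and 3.72 CPM at 12 h and 11.5 against 3.24 and 2.5 CPM at 24 h. That is 6.38-fold, 3.09-fold and 4.0-fold higher in replicate 3. C6orf223 (ENSG00000181577.16, chr6:44000580-44007612), an open reading frame of little known function, had 48.1 CPM in replicate 3, against 9.11 and 9.82 CPM in replicates 1 and 2, in DMSO, 22.6 against 7.5 and 7.21 CPM at 12 h and 27.5 against 5.17 and 6.31 CPM at 24 h. BACE2 and C6orf223 differed at least 3-fold in each treatment. KIF26B, a kinesin family member, had 6.84 CPM in replicate 3, against 0.574 and 0.71 CPM in replicates 1 and 2, in DMSO, 3.81 against 1.11 and 1.48 CPM at 12 h and 7.92 against 2.83 and 2.18 CPM at 24 h. LRRC32, the GARP surface receptor that holds latent TGF-beta, had 42.3 CPM in replicate 3, against 4.15 and 5.05 CPM in replicates 1 and 2, in DMSO, 8.54 against 4.05 and 4.09 CPM at 12 h and 7.45 against 3.42 and 2.26 CPM at 24 h. It was far apart in DMSO and less so when treated. BBOX1, the last enzyme of carnitine synthesis, had 7.4 CPM in replicate 3, against 2.19 and 2.6 CPM in replicates 1 and 2, in DMSO, 7.01 against 2.34 and 2.08 CPM at 12 h and 7.1 against 3.37 and 3.57 CPM at 24 h. It had little change across treatments in replicate 3. GPM6A, a neuronal membrane glycoprotein, had 7.1 CPM in replicate 3, against 3.34 and 2.48 CPM in replicates 1 and 2, in DMSO, 5.76 against 1.96 and 2.24 CPM at 12 h and 8.31 against 2.16 and 2.38 CPM at 24 h.

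Some of these genes were close to absent in replicates 1 and 2. ACTG2, the enteric smooth muscle actin, had 25.8 CPM in replicate 3, against 0.439 and 0.276 CPM in replicates 1 and 2, in DMSO, 4.88 against 0.298 and 0.20 CPM at 12 h and 2.42 against 0.090 and 0 CPM at 24 h. The 24 h values of replicates 1 and 2 are under the 3-count limit, and reads of near-identical actin genes could be shared. SERPINA9, a germinal centre serpin, had 0.898 CPM in replicate 3, against 0.0337 and 0 CPM in replicates 1 and 2, in DMSO, 1.07 against 0.128 and 0 CPM at 12 h and 0.897 against 0.045 and 0 CPM at 24 h. CD3G, listed as a T cell marker, had 2.05 CPM in replicate 3, against 0.371 and 0.197 CPM in replicates 1 and 2, in DMSO, 0.991 against 0.128 and 0.16 CPM at 12 h and 1.13 against 0.18 and 0.0397 CPM at 24 h. The summed T and NK markers were not above those of all other libraries in replicate 3. PECAM1, the one stromal marker above 1 CPM, had 4.83 CPM in replicate 3, against 2.4 and 2.21 CPM in replicates 1 and 2, in DMSO. Whether a few other cells contribute to these levels was not tested.

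Among B cell genes the direction was mixed. CD38, an ectoenzyme of germinal centre and plasma cells, had 34.2 CPM in replicate 3, against 15.7 and 14.7 CPM in replicates 1 and 2, in DMSO, 37.6 against 18.4 and 17.8 CPM at 12 h and 36.8 against 18.1 and 19.4 CPM at 24 h. Over treatments the difference was 1.07 ± 0.07 log2. IRF4, the factor of activated B cells and plasma cells, had 20.3 CPM in replicate 3, against 9.72 and 10.1 CPM in replicates 1 and 2, in DMSO, 23.5 against 12.1 and 12.9 CPM at 12 h and 26.4 against 11.5 and 12.3 CPM at 24 h. Its difference was 1.03 ± 0.08 log2. Both were higher in replicate 3 by a similar step at every time. FCRL1, a B cell receptor coactivator, had 8.93 CPM in replicate 3, against 3.44 and 3.04 CPM in replicates 1 and 2, in DMSO, 5.72 against 2.86 and 3.08 CPM at 12 h and 7.34 against 4.27 and 3.49 CPM at 24 h. MS4A1, which encodes CD20, had 374 CPM in replicate 3, against 295 and 275 CPM in replicates 1 and 2, in DMSO, 526 against 423 and 425 CPM at 12 h and 525 against 364 and 380.2 CPM at 24 h, and it too was higher at every time. CD72, a B cell inhibitory receptor, had 97.1 CPM in replicate 3, against 156 and 158 CPM in replicates 1 and 2, in DMSO, 105 against 140.4 and 132 CPM at 12 h and 82.9 against 136 and 129 CPM at 24 h. CD72 in replicate 3 was below replicates 1 and 2 at every time. BCL6, the master repressor of the germinal centre, had 705 CPM in replicate 3, against 571 and 607 CPM in replicates 1 and 2, in DMSO, 635 against 639.8 and 684 CPM at 12 h and 568 against 556 and 596 CPM at 24 h. The groups overlapped. Of 18 tested B cell genes 8 were called higher and 3 lower in DMSO and 4 and 7 at 24 h. Of 16 germinal centre genes 6 were called higher and 1 lower in DMSO and 8 and 3 at 24 h. The shares of all genes were 18.3% and 16.7% in DMSO and 21.8% and 19.5% at 24 h.

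**Figure D4:**
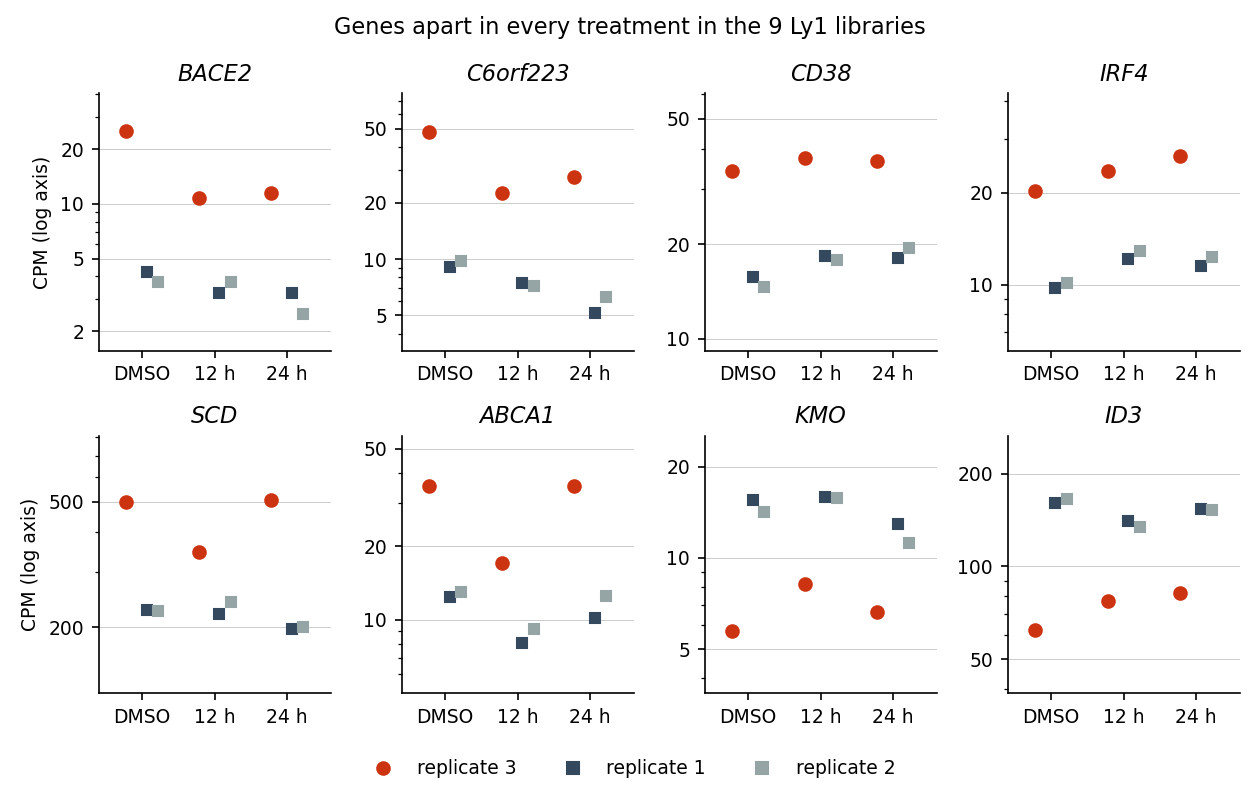
CPM on a log axis in each Ly1 library by treatment for 6 genes higher and 2 genes lower in replicate 3 (circles) than in replicates 1 and 2 (squares) in every treatment; each point is 1 library. CD38 in replicate 3 stays between 34.2 and 37.6 CPM, against 14.7 to 19.4 CPM in replicates 1 and 2.

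Several genes were lower in replicate 3 in every treatment. ID3 (ENSG00000117318.9, chr1:23557926-23559501), an inhibitor of E-protein transcription factors in germinal centre B cells, had 62.2 CPM in replicate 3, against 160.2 and 166 CPM in replicates 1 and 2, in DMSO, 77.5 against 140.1 and 134 CPM at 12 h and 81.8 against 154 and 152 CPM at 24 h. KMO (ENSG00000117009.12, chr1:241532134-241595642), kynurenine monooxygenase of tryptophan breakdown, had 5.73 CPM in replicate 3, against 15.5 and 14.2 CPM in replicates 1 and 2, in DMSO, 8.2 against 15.9 and 15.7 CPM at 12 h and 6.63 against 13 and 11.2 CPM at 24 h. At 24 h ID3 differed by -0.90 log2 (-0.57 with the offsets). Over treatments the differences of ID3 and KMO were -1.03 ± 0.10 and -1.05 ± 0.12 log2, so these genes were similarly far apart. EEF1A2, an elongation factor paralog, had 6.28 CPM in replicate 3, against 12.8 and 12.4 CPM in replicates 1 and 2, in DMSO, 4.57 against 9.72 and 9.53 CPM at 12 h and 3.36 against 7.83 and 7.58 CPM at 24 h. EMP3, an epithelial membrane protein family gene, had 6.88 CPM in replicate 3, against 11.7 and 11.5 CPM in replicates 1 and 2, in DMSO, 5.45 against 10.0 and 11.3 CPM at 12 h and 5.62 against 12.8 and 12.5 CPM at 24 h. CLYBL, a mitochondrial lyase linked to vitamin B12, had 5.09 CPM in replicate 3, against 11.5 and 12.1 CPM in replicates 1 and 2, in DMSO, 7.09 against 12.6 and 11.6 CPM at 12 h and 5.19 against 8.19 and 10.0 CPM at 24 h. Replicate 3 lay below replicates 1 and 2 in these genes at every time, without overlap, and EMP3 differed at 24 h by -1.17 log2 (-0.74 with the offsets). LGALS1, galectin-1, had 2.48 CPM in replicate 3, against 6.31 and 6.19 CPM in replicates 1 and 2, in DMSO, 1.49 against 3.92 and 3.44 CPM at 12 h and 1.29 against 4.09 and 4.29 CPM at 24 h. SERPINI1, the neuroserpin inhibitor, had 22.2 CPM in replicate 3, against 51.3 and 50.5 CPM in replicates 1 and 2, in DMSO, 26.9 against 42.6 and 40.2 CPM at 12 h and 22.6 against 40.8 and 39.2 CPM at 24 h. CD96, a receptor of T and NK cells that some tumour B cells express, had 20.8 CPM in replicate 3, against 44.9 and 44.5 CPM in replicates 1 and 2, in DMSO, 19.3 against 30.2 and 34.2 CPM at 12 h and 17.2 against 29.2 and 28.5 CPM at 24 h. LGALS1, SERPINI1 and CD96 were lowest in replicate 3 in each treatment.

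In other genes the gap depended on the treatment. HBEGF, a ligand of the EGF receptor, had 1.71 CPM in replicate 3, against 7.96 and 9.47 CPM in replicates 1 and 2, in DMSO, 4.84 against 6.78 and 6.69 CPM at 12 h and 5.97 against 8.95 and 8.33 CPM at 24 h. It was lowest in replicate 3 throughout, with its widest gap in DMSO, and its 24 h difference of -0.53 log2 (-0.40 with the offsets) was not called with the offsets. PRICKLE1, a planar polarity gene, had 6.67 CPM in replicate 3, against 20.1 and 20.3 CPM in replicates 1 and 2, in DMSO, 11.4 against 12.9 and 15.5 CPM at 12 h and 8.43 against 7.2 and 8.22 CPM at 24 h. It was lower in replicate 3 in DMSO and at 12 h and above both others at 24 h, where the difference was 0.13 log2 (-0.12 with the offsets) and not called. GPR18, a lipid-responsive receptor abundant in lymphocytes, differed in the treated libraries, with 18.8 CPM in replicate 3, against 21 and 18.9 CPM in replicates 1 and 2, in DMSO, 9.11 against 23.2 and 23 CPM at 12 h and 10.6 against 27.8 and 27.6 CPM at 24 h. Its DMSO values were alike, and its log2 change at 24 h was -0.82 in replicate 3, against 0.41 and 0.54 in replicates 1 and 2.

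Sterol and fatty acid lists had medians above 0 in replicate 3, highest at 24 h. The fatty acid and SREBP1 list (12 tested) had medians of 0.17 in DMSO, 0.41 at 12 h and 0.89 at 24 h, with 5, 7 and 11 genes called higher. The cholesterol and SREBP2 list (24 tested) had medians of 0.06, 0.28 and 0.68, with 8, 13 and 17 called higher and 4 called lower in DMSO, which is 16.7% of the list and the share of all genes. At 24 h 1 was lower. With the offsets the 24 h medians were 0.63 and 0.62. The shares of all genes called higher were 18.3% in DMSO, 2.61% at 12 h and 21.8% at 24 h. SREBF1, which encodes the SREBP1 factor, had 120.4 CPM in replicate 3, against 36.7 and 37.2 CPM in replicates 1 and 2, in DMSO, 74.8 against 37.4 and 36.9 CPM at 12 h and 108 against 56 and 57.5 CPM at 24 h. SCD, the desaturase that makes oleate, had 498 CPM in replicate 3, against 227 and 225 CPM in replicates 1 and 2, in DMSO, 347 against 221 and 240.2 CPM at 12 h and 506 against 198 and 200.2 CPM at 24 h. FADS2, a polyunsaturated fatty acid desaturase, had 206 CPM in replicate 3, against 109.8 and 112 CPM in replicates 1 and 2, in DMSO, 195 against 128 and 122 CPM at 12 h and 252 against 98.6 and 106 CPM at 24 h. SREBF1, SCD and FADS2 had no overlap at any time, with the largest difference in DMSO for SREBF1 (1.70 ± 0.07) and at 24 h for SCD (1.35 ± 0.06) and FADS2 (1.30 ± 0.07). HMGCS1, which makes HMG-CoA for sterols, had 199.7 CPM in replicate 3, against 175 and 172 CPM in replicates 1 and 2, in DMSO, 303 against 208 and 215 CPM at 12 h and 308 against 139 and 149.9 CPM at 24 h. Its log2 change at 24 h was 0.62 in replicate 3, against -0.33 and -0.20 in replicates 1 and 2, so at 24 h its level was above DMSO in replicate 3 alone. Of 5 tested targets of the LXR receptors, 3 were called higher and 1 lower in DMSO, with a median of 1.32, and ABCA1 is a sterol exporter among them. ABCA1 had 35.4 CPM in replicate 3, against 12.5 and 13 CPM in replicates 1 and 2, in DMSO, 17.1 against 8.05 and 9.21 CPM at 12 h and 35.2 against 10.2 and 12.6 CPM at 24 h. MYLIP, a ubiquitin ligase that LXR induces, had 45.1 CPM in replicate 3, against 17.3 and 18.9 CPM in replicates 1 and 2, in DMSO, 23.6 against 15.3 and 15.1 CPM at 12 h and 33 against 15.8 and 17.2 CPM at 24 h. LPCAT3, another of the 5 LXR list genes, had 30.6 CPM in replicate 3, against 35.3 and 36.6 CPM in replicates 1 and 2, in DMSO, 28.2 against 32.8 and 31 CPM at 12 h and 35 against 32.8 and 33.9 CPM at 24 h. The list members differed in direction.

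Chaperone genes of the endoplasmic reticulum and cytosol were mostly lower in DMSO replicate 3. The shares called over all genes were 18.3% higher and 16.7% lower in DMSO, and 21.8% and 19.5% at 24 h. Of 24 tested genes of the unfolded protein response, 18 were called lower in DMSO, with a median of -0.41, while at 24 h 7 were higher and 10 lower, with a median of -0.05. HYOU1, a chaperone of the endoplasmic reticulum, had 154 CPM in replicate 3, against 253 and 259.9 CPM in replicates 1 and 2, in DMSO, 197 against 213 and 233 CPM at 12 h and 202 against 164 and 166 CPM at 24 h. Its sign turned by 24 h. SDF2L1, a co-chaperone, had 28.8 CPM in replicate 3, against 53 and 53.5 CPM in replicates 1 and 2, in DMSO, 39.5 against 43.9 and 43.3 CPM at 12 h and 30.4 against 50.9 and 46 CPM at 24 h. Its 24 h difference was -0.67 log2 (-0.20 with the offsets), no longer called with them. Of 21 heat shock genes, 15 were lower and 1 higher in DMSO, with a median of -0.34. HSPA8, the constitutive HSC70 chaperone, had 1839 CPM in replicate 3, against 2860.2 and 2757 CPM in replicates 1 and 2, in DMSO, 3079.8 against 3203 and 3290.0 CPM at 12 h and 3140.0 against 1675 and 1951 CPM at 24 h. Its log2 change at 24 h was 0.77 in replicate 3, against -0.77 and -0.50 in replicates 1 and 2, opposite in sign. The heat shock list had a median difference of -0.08 at 24 h (-0.05 with the offsets), and without them 8 genes lay above 0 and 13 below. Of 30 tested genes of the amino acid response, 17 differed above 0 in DMSO and 13 below, with a median of 0.14. At 12 h 27 were above 0 and 3 below, with a median of 0.20, and at 24 h 22 and 8, with a median of 0.14. ATF4, the factor of the amino acid response, had 462 CPM in replicate 3, against 215 and 224 CPM in replicates 1 and 2, in DMSO, 427 against 277 and 274 CPM at 12 h and 494 against 518 and 494 CPM at 24 h. SHMT2, a mitochondrial one-carbon enzyme of that response, had 647 CPM in replicate 3, against 320.1 and 326 CPM in replicates 1 and 2, in DMSO, 361 against 306 and 294 CPM at 12 h and 417 against 329.6 and 339 CPM at 24 h. ATF4 was thus higher in replicate 3 in DMSO and at 12 h, and met the others at 24 h, where its difference was -0.04 log2 (0.18 with the offsets), called with the offsets alone.

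Lists of ribosomal protein and respiratory chain mRNAs, which are short transcripts, had medians below 0 in replicate 3 in every treatment. Of 74 ribosomal protein genes, 48 were called lower in DMSO, 10 at 12 h and 69 at 24 h, with medians of -0.22, -0.15 and -0.54. With the length and GC offsets the medians were -0.24 in DMSO and -0.27 at 24 h. Of 50 nuclear-encoded oxidative phosphorylation genes, 33, 5 and 40 were lower, with medians of -0.27, -0.16 and -0.54, and with the offsets -0.27 in DMSO and -0.29 at 24 h. Both list medians thus stayed below 0 with the offsets. The shares of all genes called lower, without the offsets, were 16.7% in DMSO, 1.46% at 12 h and 19.5% at 24 h. ATP5MC1, a subunit of ATP synthase, had 85.1 CPM in replicate 3, against 145 and 144 CPM in replicates 1 and 2, in DMSO, 98.4 against 142 and 128 CPM at 12 h and 95.9 against 164 and 145 CPM at 24 h. RPL39, of the large ribosomal subunit, had 421 CPM in replicate 3, against 643 and 625 CPM in replicates 1 and 2, in DMSO, 429.7 against 514 and 499 CPM at 12 h and 391 against 633 and 627 CPM at 24 h. Neither gene overlapped between the groups at any time. The 13 mitochondrially encoded mRNAs had medians of -0.33, -0.08 and -0.86, and at 24 h all 13 lay below 0 without the offsets. The 24 h median was -0.50 with the offsets. MT-ND1, a complex I subunit, had 1783 CPM in replicate 3, against 2276 and 2192 CPM in replicates 1 and 2, in DMSO, 2341 against 2983 and 2286 CPM at 12 h and 2021 against 4546 and 3670.1 CPM at 24 h, and its 24 h difference, -1.02 log2 (-0.65 with the offsets), was not called with the offsets. Mitochondrial genes took 4.72%, 6.04% and 5.46% of counts in replicate 3 in DMSO, at 12 h and at 24 h, against 6.02% and 5.77%, 6.82% and 5.38%, and 9.78% and 8.30% in replicates 1 and 2. The 24 h gap thus came with a high share in replicates 1 and 2. RPL22L1, a ribosomal protein paralog, had 33 CPM in replicate 3, against 24.4 and 20.5 CPM in replicates 1 and 2, in DMSO, 27.4 against 34.3 and 32.3 CPM at 12 h and 27.5 against 74.5 and 67.1 CPM at 24 h. Its log2 change at 24 h was -0.27 in replicate 3, against 1.61 and 1.71 in replicates 1 and 2. SYT11, a vesicle trafficking protein, differed the other way, with 26.5 CPM in replicate 3, against 17 and 15.8 CPM in replicates 1 and 2, in DMSO, 21.1 against 12.7 and 13.5 CPM at 12 h and 23 against 5.67 and 5.79 CPM at 24 h. For both, replicate 3 at 24 h kept near its DMSO level. MYC had 379.5 CPM in replicate 3, against 403 and 433 CPM in replicates 1 and 2, in DMSO, 390.0 against 409 and 425 CPM at 12 h and 417 against 283 and 283 CPM at 24 h. TFRC, the transferrin receptor, had 321 CPM in replicate 3, against 436 and 409.8 CPM in replicates 1 and 2, in DMSO, 382 against 392 and 427 CPM at 12 h and 438 against 235 and 258 CPM at 24 h. Replicate 3 was above the others at 24 h in both genes.

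U2932, grown in RPMI medium and treated in the same way, gives values that the choice of libraries did not use. What its replicate 3 libraries share with those of Ly1, apart from the number, is not given. The U2932 fit takes the 3 libraries numbered 3 as separate samples, so its p-values measure spread among libraries and not among cultures. There 1997 genes (13.2%) were higher and 2284 (15.1%) lower in replicate 3 than in replicates 1 and 2, over treatments. Of the 1022 genes tested there that were higher without overlap in Ly1 replicate 3, 211 were higher (20.6%) and 140 lower (13.7%) in U2932 replicate 3. Of the 1241 that were lower in Ly1, 128 (10.3%) were higher and 287 (23.1%) lower. Each set held genes called in both directions in U2932. Over 13054 genes the differences of both lines correlated with a Pearson r of -0.01 and a Spearman rho of 0.05. The hypoxia list median in U2932 was 0.05, with 10 of 35 genes higher and 5 lower, and the glycolysis median was -0.04, with 3 of 24 higher and 7 lower. The mitosis list median was -0.38. Ribosomal protein genes were lower in 38 of 74 cases and higher in 2 in U2932 replicate 3, with a median of -0.17, and oxidative phosphorylation genes lower in 25 of 50 and higher in 1, with a median of -0.20. Those lists thus had a negative median in replicate 3 of both lines.

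Gene by gene, the difference between lines was fitted over all 18 libraries. It holds the Ly1 difference that set the choice, so for single genes it is given with no p-value. The replicate 3 difference was called higher in Ly1 than in U2932 for 1369 genes (8.46%) and lower for 1193 (7.37%). BACE2 in U2932 had 0.75 CPM in replicate 3, against 1.46 and 2.06 CPM in replicates 1 and 2, in DMSO, 0.419 against 1.6 and 2.01 CPM at 12 h and 0.426 against 2.08 and 1.97 CPM at 24 h. There the difference was -1.79 ± 0.26 log2 (edgeR adjusted p = 1.03e-04). The lines differed by 3.88 ± 0.32. SREBF1 in U2932 had 77.5 CPM in replicate 3, against 128 and 129.7 CPM in replicates 1 and 2, in DMSO, 79.8 against 107 and 105 CPM at 12 h and 81.3 against 130.1 and 138 CPM at 24 h. There the difference was -0.62 ± 0.06 log2 (edgeR adjusted p = 2.39e-06), and the lines differed by 1.81 ± 0.14. These genes were thus higher in Ly1 replicate 3 and lower in U2932 replicate 3. CD38 in U2932 had 154 CPM in replicate 3, against 153 and 158 CPM in replicates 1 and 2, in DMSO, 131 against 132 and 130.4 CPM at 12 h and 128 against 132 and 129.9 CPM at 24 h. Its line difference was 1.05 ± 0.08. The U2932 levels of CD38 were close together in each treatment. IRF4 in U2932 had 541 CPM in replicate 3, against 543 and 577 CPM in replicates 1 and 2, in DMSO, 644 against 558 and 594 CPM at 12 h and 596 against 579.6 and 621 CPM at 24 h. Those values overlapped, and its line difference was 0.96 ± 0.09. ID3 and KMO were lower in U2932 replicate 3 too, with differences of -0.43 ± 0.08 (adjusted p = 6.53e-04) and -0.53 ± 0.12 log2 (adjusted p = 0.00382). The line difference was -0.63 ± 0.13 for ID3 and -0.56 ± 0.16 for KMO. CA9 did not pass the filter in U2932, and its line difference was 6.68 ± 2.35.

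**Figure D5:**
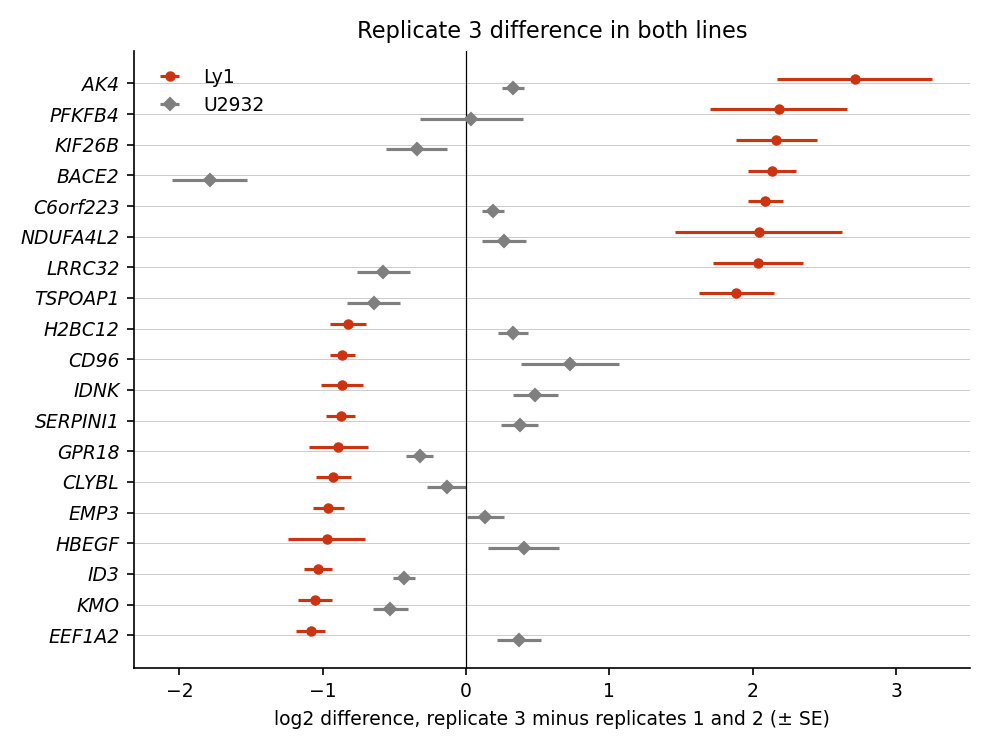
Log2 difference between replicate 3 and replicates 1 and 2, over treatments, in Ly1 (circles) and U2932 (diamonds), with SE bars, for the 19 genes named by the rule on the Ly1 difference that were tested in both lines. BACE2 lies at 2.13 in Ly1 and -1.79 in U2932, while ID3 and KMO lie below 0 in both.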

How the data were processed

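The authors deposited whole-number read counts per gene for 60656 genes in 18 libraries, of which 27386 are 0 throughout. Per the labels' protocols, libraries were made from 500 ng of total RNA using NuGEN Universal Plus mRNA-Seq chemistry and 14 PCR cycles, and reads of 2 NovaSeq runs were combined. Per the submitters' processing notes cutadapt, STAR, Picard and hg38 were used; for the versions, counting tool, strand and annotation the sources used here say nothing, so overlapping, antisense and near-identical genes are uncertain.

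Counts were fitted with edgeR 4.0.16 (limma 3.58.1, R 4.3.3): filterByExpr, TMM scaling, robust quasi-likelihood tests and p-values adjusted by Benjamini-Hochberg over all genes of a fit, at 0.05. The comparison over treatments used the 9 Ly1 libraries with treatment as a block. The comparisons inside each treatment and of responses used 1 fit with a mean for replicate 3 and for replicates 1 and 2 in each treatment. U2932 was fitted alike, and the line difference on all 18 libraries. The fits were tested on simulated counts. An SE is the size of the log2 difference divided by the square root of the F statistic of its test. Inside a treatment of Ly1 its spread comes from replicates 1 and 2 alone. CPM use TMM-scaled totals. Transcript length and GC come from the longest GENCODE v29 transcript (99.1% of tested genes). Alternatives were DESeq2 1.42.0, limma voom, other scalings and filters, left-out libraries, and length and GC offsets (loess span 0.5, chosen after the data were seen). Python 3.11.15, pandas 2.3.3 and matplotlib 3.10.9 were used for promoters and figures.

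The members and the gene lists were chosen with earlier results of these data known. Genes named for their difference are protein-coding with at least 5 CPM in the higher set. These are up to 12 in each direction without overlap over treatments and up to 6 in each direction inside a treatment. Up to 5 were named for responses and lines in the same way. Up to 4 per list were named with neither limit. Some of those are non-coding (MIR210HG) or under 5 CPM in Ly1 (SERPINA9, CD3G and ABCG1). GAK, MYC, MKI67, TXNIP, VEGFA and CCNB1 were fixed. Other list members and markers in the text, among them PGK1, LDHA, PDK1, BNIP3, ANKRD37, MS4A1, BCL6 and NFKBIA, were added after their values were seen. A few genes that the rule or the lists hold are not reported here. Replicate numbers are the contrast itself here, so they could not also serve as a full block.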

Additional observations from a re-analysis of the deposited data

Results flagged for a closer look

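The difference between replicate 3 and replicates 1 and 2 was tested between the lines over all 18 libraries with edgeR, and 2562 genes passed an adjusted p of 0.05. This difference holds the Ly1 values that set the choice, and the genes below were named for their Ly1 difference over treatments, so that 17 of them passed was largely fixed by that choice. The log2 difference in Ly1 minus that in U2932 was 6.38 for ACTG2, which did not pass the filter in U2932 alone, 3.88 for BACE2, 2.59 for LRRC32, 2.49 for TSPOAP1, 2.47 for AK4, 2.44 for KIF26B and 1.87 for C6orf223. On the lower side it was -1.63 for CD96, -1.49 for EEF1A2, -1.40 for HBEGF, -1.38 for IDNK, -1.28 for SERPINI1, -1.19 for H2BC12, -1.13 for EMP3, -0.82 for CLYBL, -0.63 for ID3 and -0.56 for KMO.

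The response to SGC-GAK-1 differed between replicate 3 and replicates 1 and 2 of Ly1 for 1266 genes at 12 h and 4749 genes at 24 h. These counts come from the libraries that set the choice, with 1 library of replicate 3 in each treatment, and describe them alone. At 24 h they carry the relation with transcript length (Spearman rho of 0.38 over 13882 genes).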

How the results depend on the processing

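Of the counts over treatments (1120 genes higher and 931 lower in replicate 3), 1754 were higher with no low-count filter, and 525 were higher and 365 lower with no treatment block. With DESeq2, 1468 were higher and 1522 lower in DMSO (2561 and 2334 with edgeR), 156 higher and 88 lower at 12 h (366 and 204), and 1768 lower at 24 h (2734). For the responses DESeq2 gave 187 higher and 352 lower at 12 h (493 and 773), and 1210 lower at 24 h (2260). Length and GC offsets gave 438 lower at 12 h, and 1082 higher for the 12 h response. Scaling by library size only gave 294 higher for the 12 h response, and 733 lower for the line difference (1193 with TMM). U2932 had 1330 higher with no treatment block (1997 with it).

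With a replicate block for numbers 1 and 2 where the fit allowed it, 779 genes were higher and 531 lower over treatments, the 12 h response had 620 higher and 868 lower, the 24 h response 2594 and 2385, and U2932 1799 and 2132. Whether numbers pair cultures is not given.

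Leaving out libraries gave 91 to 1342 genes higher and 14 to 1103 lower over treatments, 1884 to 2652 and 1591 to 2632 in DMSO, 236 to 510 and 114 to 278 at 12 h, and 2467 to 3165 and 2102 to 2777 at 24 h. It gave 209 to 637 and 495 to 819 for the 12 h response, and 2015 to 2732 and 1783 to 2354 for the 24 h response. It gave 769 to 2250 and 1107 to 2561 in U2932, and 978 to 1781 and 763 to 1481 for the line difference. Over treatments there were 117 higher and 26 lower without all of replicate 1, 91 and 14 without all of replicate 2, 486 and 310 without 12 h replicate 1, 508 and 311 without DMSO replicate 2, 528 and 363 without 24 h replicate 2, 648 and 442 without DMSO replicate 1, and 594 lower without 24 h replicate 1. At 12 h there were 236 and 114 without 12 h replicate 1. The 12 h response had 209 and 495 without DMSO replicate 1 and 314 higher without DMSO replicate 2. U2932 had 769 and 1163 without replicate 1, 831 and 1107 without replicate 2, and the line difference had 763 lower without U2932 DMSO replicate 3. The cause of these shifts was not tested.

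For 15 pairs of a named gene and a comparison, all 260 recomputations kept the sign and the side of 0.05. BACE2 and C6orf223 were in 2 pairs each. Over all called named genes this did not hold: over treatments 69 of 111 lost their call without all of replicate 1 and 75 of 111 without all of replicate 2, and with length and GC offsets 16 of 120 lost their call at 24 h and 3 more changed sign. Of the list medians in DMSO and at 24 h, 23 recomputed values moved by over 1.5 times or changed sign and 257 did not. Those that moved include the 24 h medians of ribosomal proteins (-0.27), oxidative phosphorylation (-0.29) and mitochondrially encoded mRNAs (-0.50) with length and GC offsets. With 1 library of replicate 3 in each treatment, its spread inside a treatment is unknown.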

Other observations

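Among genes not yet described, IGFBP2, an insulin-like growth factor binding protein, had 10.4 CPM in replicate 3, against 0.439 and 0.276 CPM in replicates 1 and 2, in DMSO of Ly1, and in DMSO of U2932 it had 0.671 CPM in replicate 3, against 4.1 and 5.43 CPM in replicates 1 and 2. Over treatments its U2932 difference was -2.44 ± 0.28 log2 (edgeR adjusted p = 8.47e-06), and the line difference, given with no p-value, was 6.20 ± 0.59. MYC in U2932 had 50.6 CPM in replicate 3, against 331 and 351 CPM in replicates 1 and 2, in DMSO, 58.3 against 299 and 322 CPM at 12 h and 44.7 against 332 and 332 CPM at 24 h, a difference of -2.68 ± 0.08 log2 (edgeR adjusted p = 7.24e-12), while in Ly1 it overlapped over treatments (0.12 ± 0.11 log2). ABCG1, a sterol exporter of the LXR list, had 3.29 CPM in replicate 3, against 0.776 and 1.22 CPM in replicates 1 and 2, in DMSO, 1.03 against 0.639 and 0.28 CPM at 12 h and 1.76 against 0.18 and 0.437 CPM at 24 h, in Ly1. In U2932 it had 1.66 CPM in replicate 3, against 12.5 and 11 CPM in replicates 1 and 2, in DMSO, 0.921 against 9.74 and 7.63 CPM at 12 h and 0.936 against 10.7 and 11.6 CPM at 24 h. It was thus higher in Ly1 replicate 3 in every treatment and lower in U2932 replicate 3, where the difference over treatments was -3.16 ± 0.17 log2 (edgeR adjusted p = 1.16e-09). RAG2, a recombinase subunit of early lymphocytes, had 7.31 CPM in replicate 3, against 5.23 and 5.8 CPM in replicates 1 and 2, in DMSO, 7.97 against 4.56 and 4.97 CPM at 12 h and 6.67 against 5.17 and 5.83 CPM at 24 h, in Ly1.

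DDB2, a DNA damage gene of the p53 list, had 49.6 CPM in replicate 3, against 20.3 and 18.8 CPM in replicates 1 and 2, in DMSO, 57.1 against 49.6 and 49.8 CPM at 12 h and 43.4 against 33.4 and 37.2 CPM at 24 h, and 15 of 28 p53 list genes were called higher and 2 lower in DMSO, against 18.3% and 16.7% of all genes. FTL, the ferritin light chain, had 977 CPM in replicate 3, against 1698 and 1686 CPM in replicates 1 and 2, in DMSO, 1157 against 1308 and 1216 CPM at 12 h and 1048 against 1338 and 1246 CPM at 24 h. Its 24 h difference was -0.30 log2 and turned to 0.12, no longer called, with length and GC offsets. HBEGF had a log2 change at 24 h of 1.76 in replicate 3, against 0.17 and -0.18 in replicates 1 and 2. TXNIP, the thioredoxin-interacting glucose sensor, had 234 CPM in replicate 3, against 207 and 195 CPM in replicates 1 and 2, in DMSO, 132 against 149 and 164 CPM at 12 h and 125 against 133 and 130.1 CPM at 24 h, with overlapping groups over treatments.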
